A study of Mus musculus with 4 samples.

Results

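The genes described here make, clear or sense extracellular adenosine. They were chosen by name, as all probe sets whose platform symbol is Nt5e, Entpd1, Ada, Adk, Adora2a, Adora2b or Dpp4. Of these 7 genes, 5 have a named probe set among the 18193 genes of the table, with 17 probe sets in all, and 15 of the 17 had a signal above the floor on at least 1 array. The floor, 12.1 signal units, was the median signal of the probe sets, controls left out, with the arrays pooled. All 5 genes exceeded it by their brightest probe set. Adora2a and Adora2b, which encode adenosine receptors coupled to the stimulatory G protein, were not analysed here.

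The study compared IL-17-producing mouse T cells that arose from different CD4 precursors, each population measured on 1 Affymetrix array without replicates. For exFoxp3Th17, Foxp3+ CD4 T cells were put into Th17 conditions and the IL-17-positive, Foxp3-negative cells were sorted. For Th17, naive CD4 T cells went through the same culture and gate. For Treg, Foxp3+ CD4 T cells were kept with IL-2 and the Foxp3-positive, IL-17-negative cells were sorted, and for Th0, naive CD4 T cells were kept in Th0 conditions and sorted as negative for both. The C57BL/6 mice were 8 to 10 weeks old, the cells came from spleen and lymph nodes, and the sorts read IL-17 through GFP and Foxp3 through APC. Culture and gate therefore changed together in each comparison with Treg or Th0. The labels used here do not give the number of animals behind an array. All differences described are between single arrays, with no spread between samples and no test.

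Extracellular ATP released by stressed or activated cells is a danger signal, and 2 membrane enzymes turn it into adenosine. Entpd1 (CD39) removes phosphates from ATP and ADP to leave AMP, and Nt5e (CD73) removes the last phosphate. Adenosine then acts on receptors that raise cyclic AMP and dampen T cell activation, which is a known way in which mouse regulatory T cells restrain other cells. Ada, adenosine deaminase, converts adenosine to inosine, and Adk, adenosine kinase, returns it to AMP inside the cell. Dpp4 (CD26) is a surface peptidase that in humans also holds adenosine deaminase at the cell surface.

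On these arrays the 2 adenosine-making enzymes parted. Nt5e was brightest in the IL-17-positive cells of Foxp3+ origin and dimmest in Th0, whereas Entpd1 was brightest in Treg and below the floor in exFoxp3Th17. Ada was likewise brightest in Treg and dimmest in exFoxp3Th17, Adk was brightest in exFoxp3Th17, and Dpp4 was dimmest in Treg. In bulk RNA, fewer cells expressing a gene and less RNA per cell cannot be told apart.

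The windows upstream of Nt5e and Entpd1 are shown because these genes carry the main contrast. They are the 250 bases before each RefSeq start (build GRCm38.p6), on the plus strand: chr9:88327359-88327608 for Nt5e, and chr19:40612116-40612365 and chr19:40659520-40659769 for the first and second starts of Entpd1. Capitals mark matches on either strand to the hypoxia response core ACGTG, the cyclic AMP response half-site TGACG or the GC box GGGCGG.
Nt5e: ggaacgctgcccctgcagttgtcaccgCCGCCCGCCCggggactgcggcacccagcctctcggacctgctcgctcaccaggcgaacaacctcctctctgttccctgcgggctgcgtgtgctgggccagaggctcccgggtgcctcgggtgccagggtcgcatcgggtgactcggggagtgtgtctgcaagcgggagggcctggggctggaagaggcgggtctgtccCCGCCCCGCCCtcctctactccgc
Entpd1 first start: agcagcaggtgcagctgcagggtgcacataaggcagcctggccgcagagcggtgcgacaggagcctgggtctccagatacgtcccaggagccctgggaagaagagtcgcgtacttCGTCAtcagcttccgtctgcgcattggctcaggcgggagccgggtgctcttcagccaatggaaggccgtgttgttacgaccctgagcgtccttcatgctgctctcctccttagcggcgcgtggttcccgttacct
Entpd1 second start: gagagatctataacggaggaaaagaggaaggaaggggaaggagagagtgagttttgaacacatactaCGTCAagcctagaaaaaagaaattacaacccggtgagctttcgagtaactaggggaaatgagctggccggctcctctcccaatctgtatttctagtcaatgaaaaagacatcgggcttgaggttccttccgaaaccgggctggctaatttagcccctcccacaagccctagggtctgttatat
The Nt5e window held 4 GC box matches, in 2 overlapping pairs, and neither other motif, and its bases were 72.0% G or C. Each Entpd1 window held 1 cyclic AMP half-site and neither other motif, with 62.4% and 47.2% G or C. Of all 32851 such windows in the RefSeq table, 32.7% held the GC box, 17.8% the half-site and 16.6% the hypoxia core, so these matches are common and are given as a description.

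Nt5e, the enzyme that completes the extracellular path to adenosine, had a signal of 1800.3 in exFoxp3Th17, 865.6 in Th17, 443.0 in Treg and 107.3 in Th0. The array of Foxp3-derived Th17 cells was therefore highest, and both arrays of Th17 cultures lay above both others. Neighbours in this order differed by 2.08-fold, 1.95-fold and 4.13-fold, so only Th17 and Treg were within 2-fold. The second Nt5e probe set gave the same order, with 142.4 in exFoxp3Th17, 63.0 in Th17, 41.8 in Treg and 8.93 in Th0. The third lay below the floor on all 4 arrays, between 3.47 and 10.8.

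**Figure D1:**
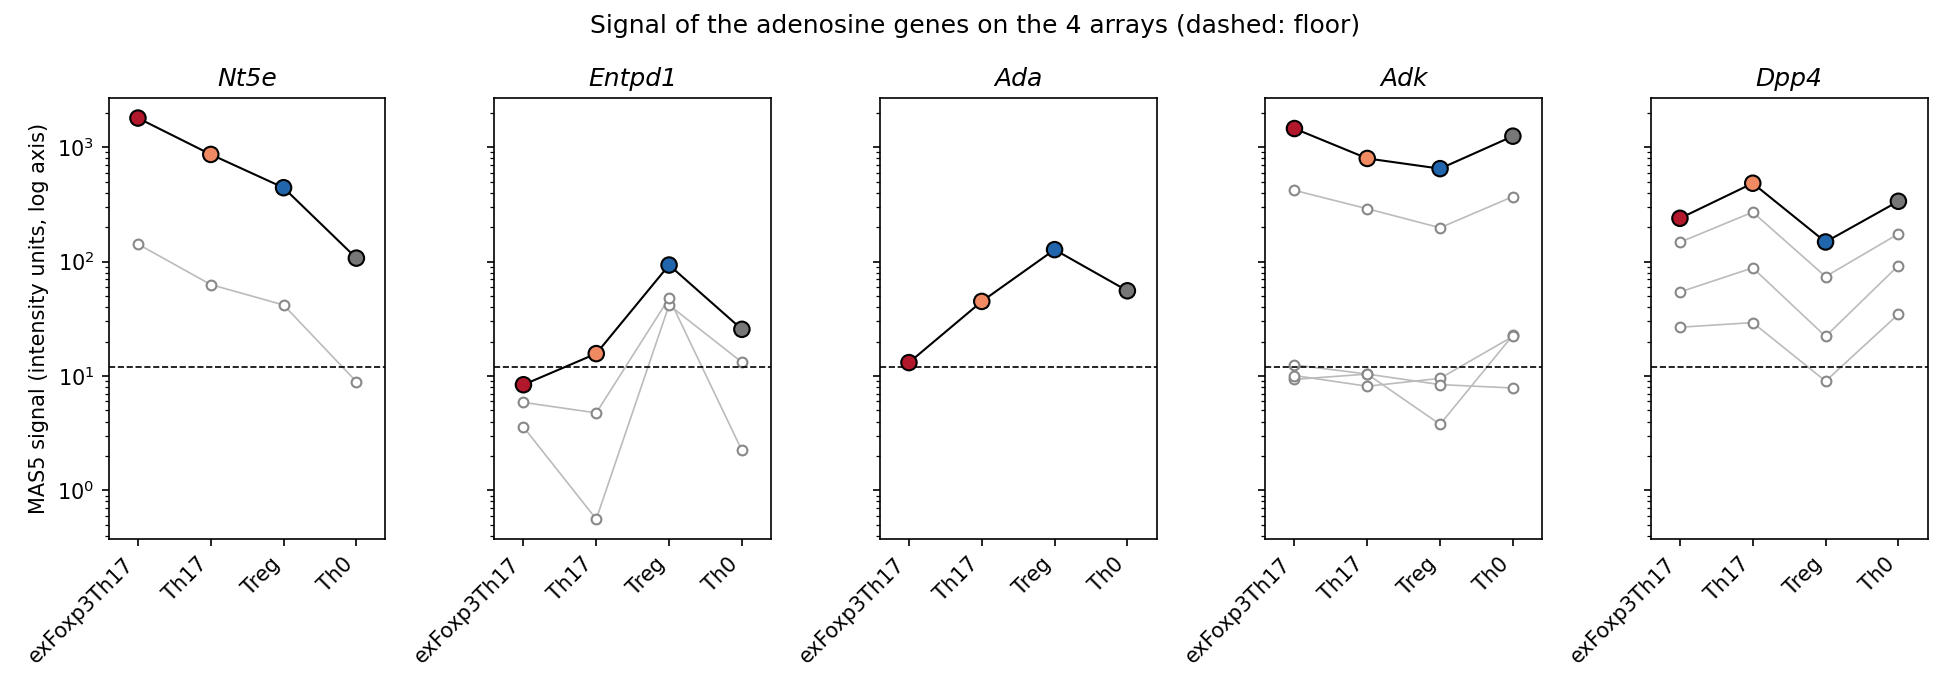
Signal (MAS5 intensity units, log axis) of the 5 measured genes on the exFoxp3Th17, Th17, Treg and Th0 arrays, with 1 array a population and no error bars. Filled points are each gene's brightest probe set, open points the other probe sets above the floor on at least 1 array, lines join the values of 1 probe set, and the dashed line is the floor of 12.1. Nt5e runs down from 1800.3 in exFoxp3Th17 to 107.3 in Th0, while Entpd1 and Ada peak in Treg at 93.4 and 127.3.

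Entpd1, which supplies the AMP that Nt5e uses, had a signal of 8.39 in exFoxp3Th17, 15.7 in Th17, 93.4 in Treg and 25.6 in Th0. Treg stood 3.65-fold above the next array, and Th17 and Th0 lay within 1.63-fold of each other. Both other probe sets were also highest in Treg: the first had 3.58 in exFoxp3Th17, 0.561 in Th17, 41.7 in Treg and 13.2 in Th0. The last had 5.88 in exFoxp3Th17, 4.76 in Th17, 47.9 in Treg and 2.24 in Th0. No Entpd1 probe set exceeded the floor in exFoxp3Th17, so its order among the low arrays is not resolved.

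B cells and myeloid cells also carry these ectoenzymes, and their markers were read beside them. Of 5 measured B cell markers, Cd79b exceeded the floor, with 19.3 in exFoxp3Th17 and 55.6 in Treg, and Cd79a, Ms4a1, Blk and Cr2 lay below it on all 4 arrays. The summed B cell marker signal was 37.5 in exFoxp3Th17, 29.3 in Th17, 72.6 in Treg and 29.8 in Th0. The highest sum was thus on the array where Entpd1 was highest. Its part in the Entpd1 signal was not tested. Of 10 myeloid and dendritic markers, 1 to 3 exceeded the floor on an array, with sums of 52.2 in exFoxp3Th17, 68.6 in Th17, 71.7 in Treg and 112.2 in Th0, and Lyz2, Itgam and Cd14 were below it on all 4. That order did not follow Entpd1 or Nt5e. Of 5 stromal and endothelial markers, Pdpn and Pecam1 were the bright ones. The sums were 431.5 in exFoxp3Th17, 716.4 in Th17, 102.8 in Treg and 123.7 in Th0, higher in both Th17 cultures as Nt5e was. Only Pdpn had that split by itself, with 228.1 in exFoxp3Th17, 630.9 in Th17, 42.2 in Treg and 6.1 in Th0. Pdpn and the sum were highest in Th17, whereas Nt5e was highest in exFoxp3Th17. Which cells gave the Pdpn signal, T cells included, was not tested. Pecam1, which T cells also express, had 191.9 in exFoxp3Th17, 79.8 in Th17, 46.9 in Treg and 94.9 in Th0. Its Th17 signal was thus below that of Th0. Col1a1 and Col3a1 lay below the floor on all 4 arrays. The sums of 3 NK cell markers were 14.8 in exFoxp3Th17, 35.2 in Th17, 41.7 in Treg and 8.4 in Th0, highest in Treg as Entpd1 was. The markers did not share that order. Ncr1 lay below the floor throughout, and Eomes exceeded it in Treg alone, at 21.5. Klrk1 was higher in Th17 (32.2) than in Treg (14.1). The part of these markers in the Nt5e and Entpd1 signals was not tested. All 9 measured genes of the CD4 T cell list exceeded the floor on every array, though not all were steady. Trat1 had 48.2 in exFoxp3Th17, 23.9 in Th17, 876.2 in Treg and 993.6 in Th0. Cd247 was 3.03-fold lower in Th17 than in Th0, with its other probe sets above the floor at log2 ratios of -0.27 and -0.96. Cd4 itself had 98.1 in exFoxp3Th17, 81.2 in Th17, 48.3 in Treg and 109.6 in Th0, but its other probe set differed by less than 2-fold in each comparison. The CD8 T cell marker Cd8b1 also exceeded the floor throughout, with 64.9 in exFoxp3Th17, 83.5 in Th17, 51.7 in Treg and 64.6 in Th0. Cd8a exceeded it on 2 arrays, at 14.3 or less. Signals of different probe sets are not comparable amounts, and the share of CD4 cells was not tested.

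The arrays had 48.7% to 51.2% of probe sets above the floor. As a check of the gates, Foxp3 had 584.9 in Treg and 4.25 to 8.03 elsewhere, whereas the signals of Il17a, 7.09 to 9.81, never reached the floor. Il17a therefore did not show the IL-17 gate on these arrays, and the name IL-17-positive rests on the described sort. The exFoxp3Th17 array also differed in Xist, the RNA of the inactive X chromosome, with 3765.6 against 7.41 to 10.8 on the others, and in the Y-linked Eif2s3y, with 4.66 against 654.5 to 875.8. Each comparison with exFoxp3Th17, the one with Th17 included, therefore also crosses a difference in sex-linked transcripts, which cannot be told apart from origin or culture. None of the 5 measured genes is on a sex chromosome in RefSeq, and whether sex bears on their signals was not tested.

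Ada, the deaminase that removes adenosine, had a signal of 13.1 in exFoxp3Th17, 44.9 in Th17, 127.3 in Treg and 55.6 in Th0. Like Entpd1 it was brightest in Treg, with exFoxp3Th17 barely above the floor and Th17 and Th0 within 1.24-fold of each other. It has 1 probe set, so no second reading was available.

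Adk, the kinase that salvages adenosine into AMP, was bright on every array, with 1457.6 in exFoxp3Th17, 798.3 in Th17, 650.1 in Treg and 1250.1 in Th0. No neighbours in this order differed by 2-fold, and exFoxp3Th17 and Th0 were within 1.17-fold. The second brightest probe set gave the same order, at 419.9 in exFoxp3Th17, 290.1 in Th17, 197.8 in Treg and 370.3 in Th0. Of the other 4 probe sets, 3 exceeded the floor on 1 array each, at 22.7 or less.

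Dpp4 had a signal of 239.3 in exFoxp3Th17, 484.7 in Th17, 148.6 in Treg and 337.0 in Th0. No neighbours in its order differed by 2-fold, the steps being 1.44-fold, 1.41-fold and 1.61-fold. All 4 probe sets were lowest in Treg, and 2 of them were highest in Th17 and 2 in Th0. As a description of these arrays, the distance between highest and lowest array was wider for Nt5e than for 98.7% of the 11769 genes above the floor on at least 1 array. The same share was 97.5% for Ada, 96.3% for Entpd1, 85.8% for Dpp4 and 72.4% for Adk.

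The comparison of exFoxp3Th17 with Th17 set cells of different origin side by side after the same culture and gate. In exFoxp3Th17, Nt5e was higher and both Ada and Dpp4 were lower, which is 1 of 5 genes higher and 2 of 5 lower. A call needed a difference of at least 2-fold with the brighter array above the floor, and by this rule 7.48% of the 11769 genes were higher and 7.27% lower. Nt5e was 2.08-fold higher, with its other probe set above the floor at a log2 ratio of 1.18. Ada was 3.43-fold lower, a log2 ratio of -1.78. Dpp4 was 2.03-fold lower, and its 3 other probe sets were lower by less than 2-fold, at log2 ratios of -0.14 to -0.87. The Nt5e and Dpp4 calls thus lie at the edge of the threshold. Both ended when a gene's probe sets were averaged, at log2 ratios of 0.74 and -0.68. For Nt5e that average takes in a probe set below the floor on both arrays, whose ratio is fixed at 0. The Nt5e probe sets above the floor both exceeded 2-fold. The Ada call ended with a floor of 24.2, at a log2 ratio of -0.89. Adk was 1.83-fold higher and Entpd1 was not called, with both arrays near or below the floor. The median log2 ratio was -0.38 over the 5 genes, beside 0.03 over all genes above the floor. That median is the Entpd1 ratio, in which exFoxp3Th17 was set to the floor. Over the 9 alternatives the Entpd1 ratio ran from -0.90 to 0.00, so the median depends on the floor.

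The comparison of Th17 with Th0 followed naive cells into the Th17 culture and the IL-17 gate. Nt5e alone was called, 8.07-fold higher in Th17 at a log2 ratio of 3.01, and 8.22% of all genes were higher. No member was lower, against 6.88% of all genes. Entpd1 had a log2 ratio of -0.70, Ada of -0.31, Adk of -0.65 and Dpp4 of 0.52, and the probe sets of Dpp4 did not share a direction. The median over the 5 genes was -0.31, beside -0.02 over all genes.

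The comparison of exFoxp3Th17 with Treg set cells of Foxp3+ origin side by side after Th17 culture and after culture with IL-2. Nt5e and Adk were higher in exFoxp3Th17 (11.3% of all genes were higher) and Entpd1 and Ada were lower (9.94% were lower). Nt5e was 4.06-fold higher, with the second probe set at a log2 ratio of 1.77. Entpd1 was at least 7.72-fold lower, 8.39 against 93.4, and both other probe sets were lower by more than 2-fold. Ada was 9.72-fold lower, 13.1 against 127.3, the widest difference among the 5 genes with both arrays above the floor. By RNA signal, the enzyme that makes AMP and the deaminase that removes adenosine were thus both dimmer in exFoxp3Th17 than in Treg. The enzyme that makes adenosine was brighter, but so was Adk, the kinase that also clears it. Adk was 2.24-fold higher, and its second brightest probe set 2.12-fold. The Adk call ended when its probe sets were averaged (log2 ratio 0.38). That average takes in probe sets near or below the floor on both arrays, which draw it toward no difference. Dpp4 was 1.61-fold higher and was not called by its brightest probe set, although 2 of the 3 others exceeded 2-fold. The exFoxp3Th17 array is the one already set against Th17. The median over the 5 genes was 0.69, beside 0.02 over all genes.

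**Figure D2:**
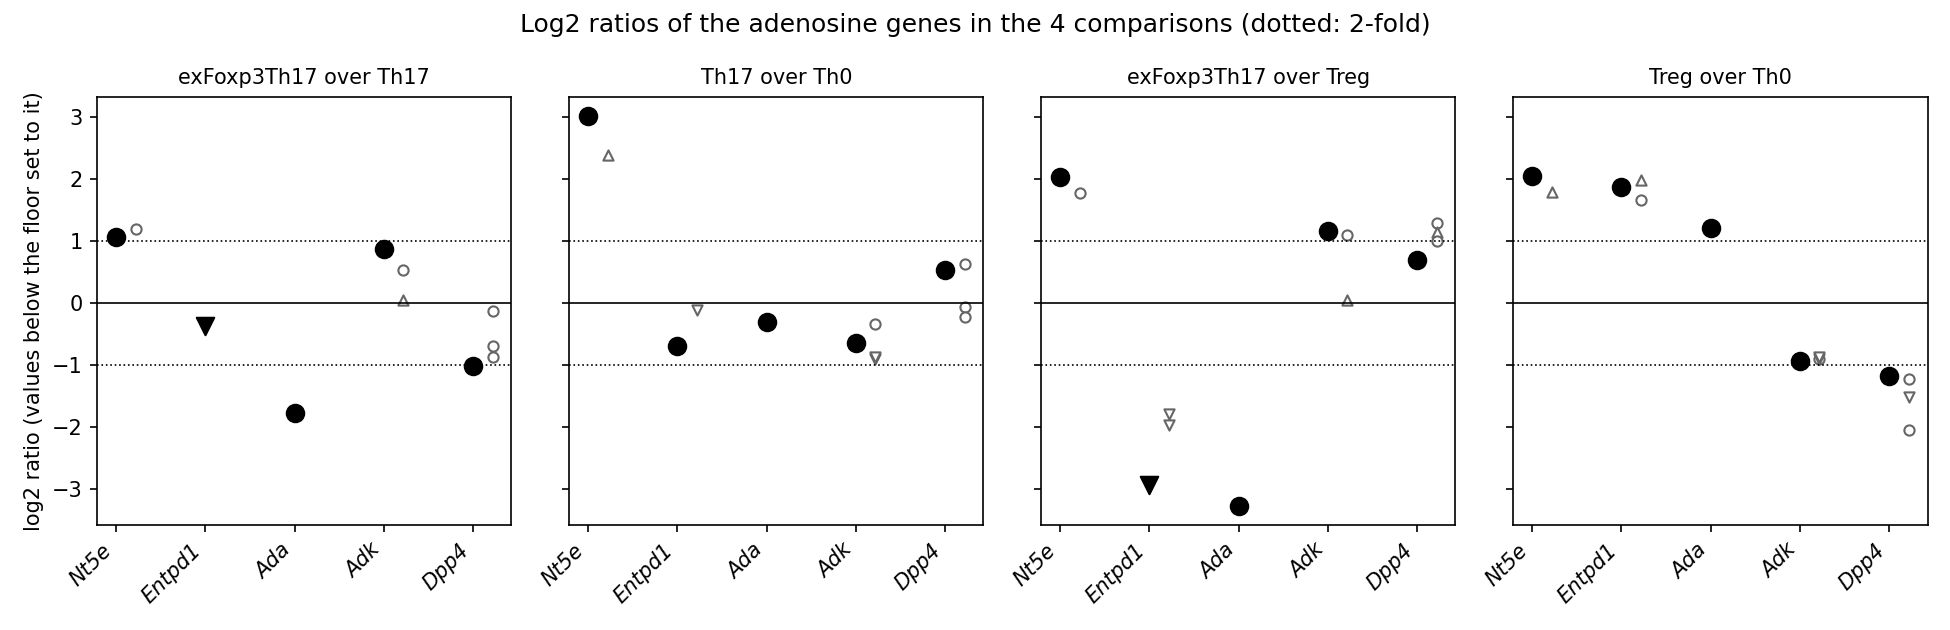
Log2 ratios of the 5 genes in the 4 comparisons, first-named array over second, with values below the floor of 12.1 set to it. Filled symbols are the brightest probe set, open symbols other probe sets, triangles mark ratios in which 1 array lay below the floor, and dotted lines mark 2-fold. Nt5e is above the upper line in all 4 panels, and Ada reaches -3.28 for exFoxp3Th17 over Treg.

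The comparison of Treg with Th0 differed in origin, culture and gate together. Both ectoenzymes and Ada were higher in Treg, 3 of 5 genes (5.56% of all genes were higher), and Dpp4 was lower (4.95% were lower). Nt5e was 4.13-fold higher, Entpd1 3.65-fold and Ada 2.29-fold. Dpp4 was 2.27-fold lower, and its 3 other probe sets were lower by 2-fold or more. Adk was 1.92-fold lower and was not called. The median over the 5 genes was 1.20, beside -0.01 over all genes. Treg shares its array with the preceding comparison and Th0 with the one of Th17.

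Other genes of adenosine and cyclic AMP handling came from lists of 100 genes, of which 89 had a single-gene probe set and 71 exceeded the floor. In exFoxp3Th17 against Th17, 4 of the 71 were higher and 4 lower. In Th17 against Th0, 7 were higher and 5 lower, in exFoxp3Th17 against Treg 7 and 10, and in Treg against Th0 9 and 4. The share of list genes that were higher was widest from the background in Treg against Th0, 12.7% beside 5.56%, with the gated Foxp3 among the 9. In exFoxp3Th17 against Treg 14.1% were lower, beside 9.94% of all genes, while 9.9% were higher, beside 11.3%. In exFoxp3Th17 against Th17 the shares were 5.6% higher and 5.6% lower, beside 7.48% and 7.27%. In Th17 against Th0 they were 9.9% and 7.0%, beside 8.22% and 6.88%, and in Treg against Th0 5.6% were lower, beside 4.95%. The median log2 ratio of the 71 genes lay between -0.05 and 0.06 in all 4 comparisons.

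**Figure D3:**
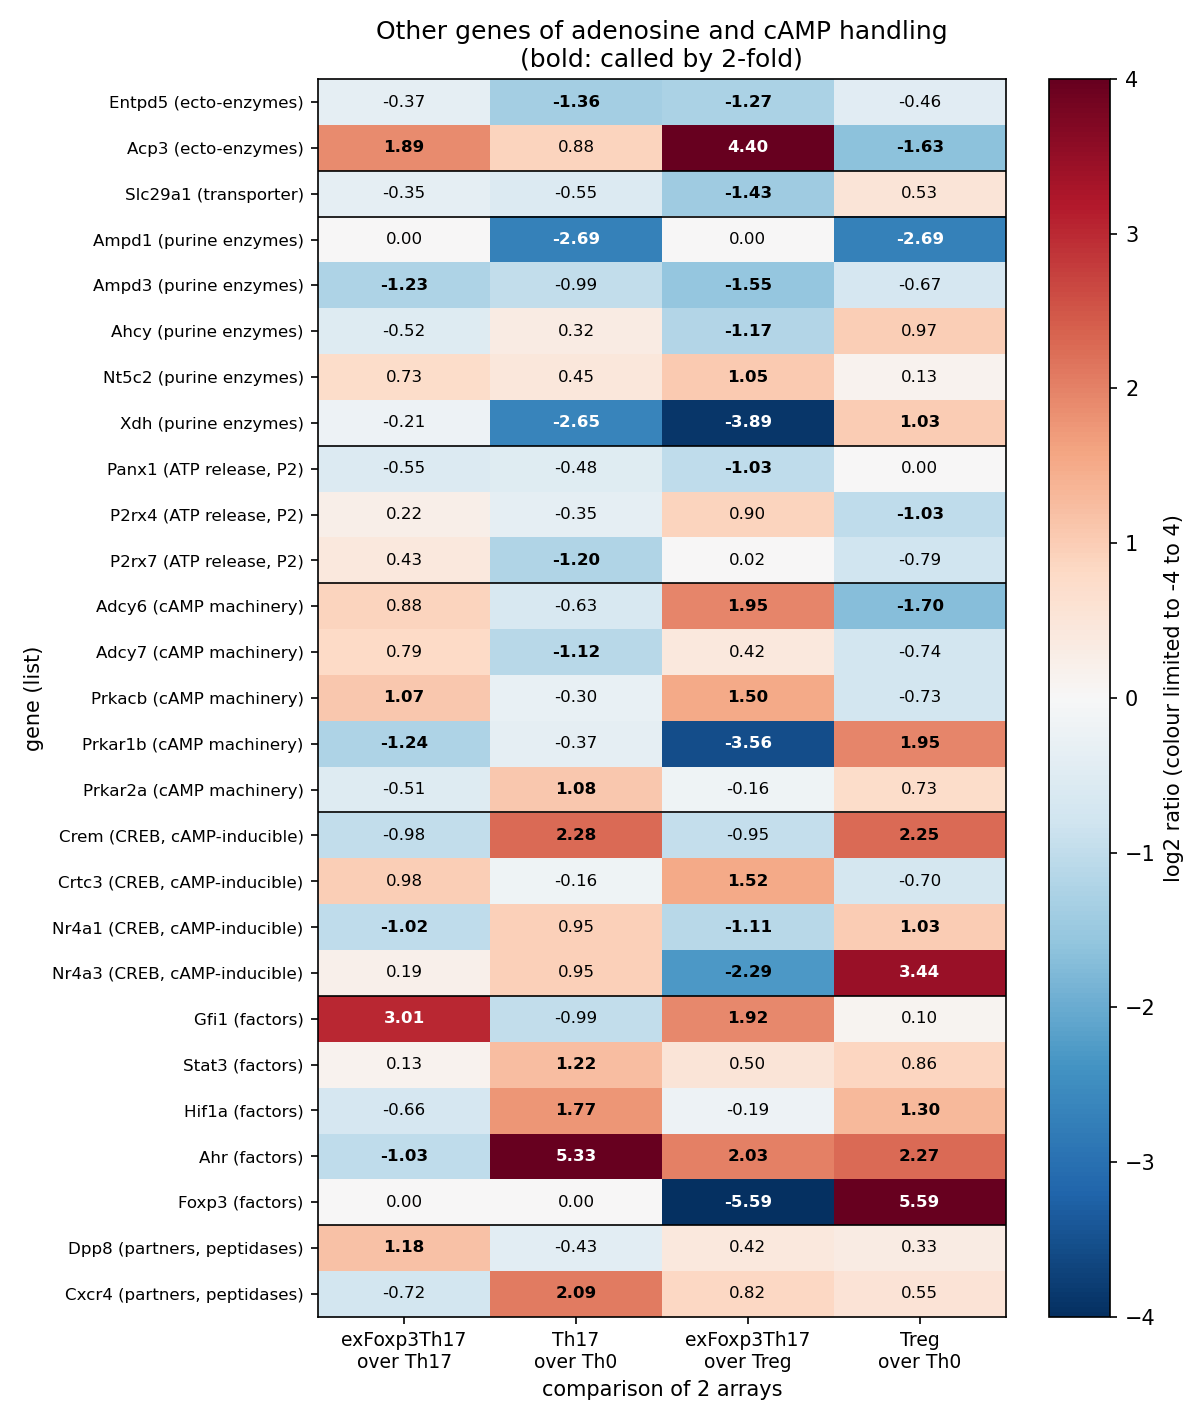
Log2 ratios of the 27 list genes that were called in at least 1 comparison with a signal of at least 48.4 on the brighter array. Rows are genes grouped by list, columns are the 4 comparisons (first-named array over second), colours run from blue (lower) to red (higher) and bold marks a call. Acp3 reaches 4.40 and Xdh -3.89 for exFoxp3Th17 over Treg.

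In the list of other ectoenzymes of nucleotide breakdown, 4 measured genes exceeded the floor. They include Entpd5, which is not a surface enzyme and is the gene counted as lower against Treg. In exFoxp3Th17 against Th17, 1 was higher and none lower (7.48% and 7.27% of all genes). Against Treg, 1 was higher and 1 lower (11.3% and 9.94% of all genes). Acp3, listed under its older symbol Acpp, had the highest signal of these on any single array. It is a transmembrane acid phosphatase known in mouse sensory neurons to release adenosine from AMP. It had a signal of 601.0 in exFoxp3Th17, 162.7 in Th17, 28.4 in Treg and 88.2 in Th0. Like Nt5e it was brightest in exFoxp3Th17, 3.69-fold above Th17 and 21.1-fold above Treg, but unlike Nt5e it was 3.10-fold lower in Treg than in Th0. Its 2 other probe sets gave smaller differences, at log2 ratios of 0.20 and 0.35 against Th17 and of 1.43 and 0.35 against Treg. For Treg over Th0, 1 of them exceeded the floor, at -0.52. Entpd5, a nucleoside diphosphatase of the endoplasmic reticulum, had 81.1 in exFoxp3Th17, 104.8 in Th17, 195.9 in Treg and 268.8 in Th0, and was 2.56-fold lower in Th17 than in Th0 and 2.41-fold lower in exFoxp3Th17 than in Treg. The other Entpd5 probe sets that passed the floor were lower too, by less than 2-fold in Th17 against Th0 and with 2 of 4 past 2-fold in exFoxp3Th17 against Treg.

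Uptake of adenosine was read from nucleoside transporters, of which 3 exceeded the floor. Slc29a1, an equilibrative transporter, had 19.3 in exFoxp3Th17, 24.6 in Th17, 52.0 in Treg and 35.9 in Th0, and was 2.69-fold lower in exFoxp3Th17 than in Treg. No other call was made in this list. The 1 measured gene among the other adenosine receptors lay below the floor on all 4 arrays.

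Downstream of the receptors, 15 of 16 genes for the stimulatory G protein, adenylyl cyclases and protein kinase A exceeded the floor, and 12 or 13 of them were within 2-fold in each comparison. Gnas, the G protein's alpha chain, was one of those within 2-fold throughout. The exceptions included Adcy6, an adenylyl cyclase, with 186.7 in exFoxp3Th17, 101.4 in Th17, 48.4 in Treg and 157.0 in Th0. Prkacb, a catalytic subunit of protein kinase A, had 1049.1 in exFoxp3Th17, 500.0 in Th17, 371.0 in Treg and 614.4 in Th0. By these probe sets both were brightest in exFoxp3Th17 and dimmest in Treg, but the second Prkacb probe set was at log2 ratios of 0.97 against Th17 and 0.62 against Treg, both under 2-fold and with Th17 dimmest. Adcy7, another cyclase, had 1395.3 in exFoxp3Th17, 804.7 in Th17, 1043.7 in Treg and 1747.8 in Th0, and all its probe sets were lower by more than 2-fold in Th17 than in Th0. Prkar2a, a regulatory subunit, was 2.11-fold higher in Th17 than in Th0 (301.8 against 142.9), with its other probe set at a log2 ratio of 0.61. Prkar1b, also a regulatory subunit, was brightest in Treg, with 5.21 in exFoxp3Th17, 28.6 in Th17, 142.5 in Treg and 36.9 in Th0, and was at least 11.8-fold lower in exFoxp3Th17 than in Treg. The 3 further probe sets that exceeded the floor were lower too, at log2 ratios of -1.91 to -2.43.

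Among CREB family and cyclic AMP-inducible genes, which other activation signals induce as well, 10 exceeded the floor. Against Th0, 4 were higher in Treg and 2 in Th17, and none was lower. Of all genes, 5.56% were higher in Treg and 8.22% in Th17, and 4.95% and 6.88% were lower. Crem, a cyclic AMP-responsive modulator of transcription, had 442.2 in exFoxp3Th17, 869.5 in Th17, 854.8 in Treg and 179.5 in Th0. The Th17 and Treg arrays were about equal, 4.84-fold and 4.76-fold above Th0, while some of its other probe sets moved by less than 2-fold. The nuclear receptor gene Nr4a3 had 27.8 in exFoxp3Th17, 24.3 in Th17, 136.3 in Treg and 12.6 in Th0, so that Treg stood apart. Crtc3, a coactivator of CREB, was 2.87-fold higher in exFoxp3Th17 than in Treg (464.3 against 161.9), with its other probe set at a log2 ratio of 0.90. Nr4a1, of the same family as Nr4a3, had 48.1 in exFoxp3Th17, 97.4 in Th17, 103.5 in Treg and 50.5 in Th0.

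Of 9 factors reported to act on Entpd1 or Nt5e, in exFoxp3Th17 1 was higher than in Th17 and 1 was lower (7.48% and 7.27% of all genes). Gfi1, a transcriptional repressor reported to act on both genes in mouse Th17 cells, had 122.6 in exFoxp3Th17, 15.3 in Th17, 32.5 in Treg and 30.2 in Th0. It was 8.04-fold higher in exFoxp3Th17 than in Th17, by its single probe set. Ahr, the aryl hydrocarbon receptor, had 746.4 in exFoxp3Th17, 1527.6 in Th17, 182.8 in Treg and 38.0 in Th0, but its other probe set differed by less than 2-fold in each comparison. Hif1a, the hypoxia-inducible factor, had 2638.7 in exFoxp3Th17, 4161.9 in Th17, 3005.5 in Treg and 1223.8 in Th0. Stat3, the transcription factor downstream of IL-6, had 674.7 in exFoxp3Th17, 614.5 in Th17, 477.5 in Treg and 263.7 in Th0, which is the order of Nt5e. It was 2.33-fold higher in Th17 than in Th0, but its 3 other probe sets differed in direction, at log2 ratios of -1.04, -0.07 and 1.67. Th0 was the lowest array for Ahr and Hif1a as well, and Th17 the highest.

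For each of the 5 genes, the 8447 genes with a signal of at least 48.4 and a named symbol were ranked by the root mean square difference of centred log2 values over the 4 arrays. Closest to Nt5e was Pmepa1 at 0.20, with 868.0 in exFoxp3Th17, 609.5 in Th17, 265.4 in Treg and 60.2 in Th0. Itpripl2 and Bcl2l2 followed at 0.33 each. Closest to Entpd1 were Dgkh at 0.13, Plxdc1 at 0.19 and Ddx43 at 0.23, and Dgkh had 30.3 in exFoxp3Th17, 37.4 in Th17, 185.6 in Treg and 62.6 in Th0. Closest to Ada were Il10ra at 0.09, Fignl1 at 0.11 and Tmem158 at 0.17. Zfp318, Ralgps2 and Fbxl12 were closest to Adk, and Slc30a4, Lyst and Rad52 to Dpp4. With 4 points a near match is easily found among so many genes, and these names are a description only.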

How the data were processed

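Total RNA of the 4 sorted populations was labelled with biotin from 1 µg and hybridised to Affymetrix arrays, 1 per population, per the labels' protocols. The deposited values are linear signal intensities. The authors made them with MAS5, which gives 1 signal per probe set, as the submitters' processing notes say without a version. The mean signal after leaving out the lowest and highest 2% was 100.0 on each array, so no further scaling was applied. Depth has no meaning for arrays, and their number limits the precision.

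Of 45101 probe sets, 64 are controls, 34945 have 1 gene symbol in the platform annotation, 932 have several and 9160 are unnamed here. RefSeq symbols replaced older ones where the gene identifier matched, and 3 list symbols were matched as synonyms. Values below the floor were set to it before log2, and the probe set with 1 symbol and the highest mean log2 signal stood for its gene. Differences of 2-fold or more with the brighter array above the floor were called, in 4 comparisons, and where the dimmer array lay below the floor the fold is written "at least". No test between groups was possible with 1 array each. The text names all 7 members, list genes called in at least 1 comparison at 4 times the floor (48.4) or more, the sort markers Foxp3 and Il17a, and the 3 closest genes by pattern. Gnas, Xist, Eif2s3y and the cell type markers lie outside that rule and were picked with their values known. The members and lists were chosen with earlier results of these data known. Calling was tested on simulated data. There were 9 alternatives, covering the floor, scaling, pseudocount, probe set choice and fold. Python 3.11.15, numpy 2.4.6, pandas 2.3.3 and matplotlib 3.10.9 were used. Scanner files and detection calls were not used here.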

Additional observations from a re-analysis of the deposited data

Results flagged for a closer look

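In 3 genes the same contrast gave log2 ratios of opposite sign in 2 settings, with at least 1 of the differences called. For Entpd1, 1 of the 2 directions is not resolved. With 1 array each, none of these differences was tested. For Adk, Th17 culture against the other culture gave log2 ratios of 1.16 in cells of Foxp3+ origin (exFoxp3Th17 against Treg) and -0.65 in cells of naive origin (Th17 against Th0, not called). For Ada, Foxp3+ against naive origin gave -1.78 after Th17 culture (exFoxp3Th17 against Th17) and 1.20 after the other cultures (Treg against Th0), both called. For Entpd1 the same contrast gave -0.38 after Th17 culture, where exFoxp3Th17 lay below the floor and no call was made, and 1.87 after the other cultures. The other cultures were IL-2 for Treg and Th0 conditions for Th0, and the gates differed too.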

How the results depend on the processing

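No paired analysis was possible because each group has 1 array. Over the 5 genes, 4 comparisons and 9 alternatives, 163 of 180 log2 ratios kept direction and side of the threshold, 10 lost a call, 6 gained one, 1 uncalled ratio became 0, and no called ratio changed sign. Counts of called members that moved by more than 1.5 times were these. In exFoxp3Th17 against Th17 the 1 higher gene became 0 with probe sets averaged and at 3-fold, and 2 at 1.5-fold; the 2 lower genes became 1 with the floor doubled, with probe sets averaged, with the floor as a pseudocount and at 3-fold. In exFoxp3Th17 against Treg the 2 higher genes became 1 at 3-fold. In Th17 against Th0 the 0 lower genes became 2 at 1.5-fold, and in Treg against Th0 the 1 lower gene became 2 at 1.5-fold and 0 at 3-fold. Quantile normalization, equal medians and 0.5 times the floor moved no count. The highest maximum picked the same probe set as the main rule for all 5 genes, so that setting could change nothing. The 1.5-fold setting could end no call, and both fold settings left every ratio unchanged. These outcomes were fixed in advance, although they count among the 9 alternatives. Averaging takes in probe sets below the floor on both arrays, which draw a ratio toward no difference. The calls of Nt5e outside the comparison of exFoxp3Th17 with Th17, of Entpd1 in both comparisons with Treg, and of Ada in exFoxp3Th17 against Treg, held under all 9. Signals near the floor limit Entpd1 and Ada in exFoxp3Th17. The detection of low signals was not tested, and with 1 array a group no setting measures variation between cultures, sorts or animals.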

Other observations

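Inside the cell, 16 of 18 measured genes of purine salvage and breakdown exceeded the floor, and most did not differ by 2-fold. In exFoxp3Th17 against Th17, 1 was lower and none higher (7.27% and 7.48% of all genes). In exFoxp3Th17 against Treg, 1 was higher and 3 lower (11.3% and 9.94% of all genes). Xdh, which oxidises hypoxanthine and xanthine to uric acid, had a signal of 7.95 in exFoxp3Th17, against 179.6 in Treg and 88.2 in Th0. It was at least 14.8-fold lower in exFoxp3Th17 than in Treg and 6.30-fold lower in Th17 than in Th0. Ampd1, an AMP deaminase, exceeded the floor in Th0 alone (77.9), and Ampd3, of the same family, had 24.4 in exFoxp3Th17, 57.4 in Th17, 71.4 in Treg and 113.6 in Th0. Ahcy, which releases adenosine and homocysteine from S-adenosylhomocysteine, had 1128.1 in exFoxp3Th17, 1617.6 in Th17, 2540.7 in Treg and 1299.6 in Th0. Nt5c2, a cytosolic nucleotidase, was the gene higher in exFoxp3Th17 than in Treg, 166.4 against 80.6, a 2.06-fold difference, with its 3 other probe sets under 2-fold at log2 ratios of 0.49 to 0.89.

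Of 11 genes for ATP release and its P2 receptors, 6 exceeded the floor and none was called in exFoxp3Th17 against Th17. Of all genes, 7.48% were higher and 7.27% lower there. P2rx7, an ATP-gated channel, had 59.2 in exFoxp3Th17, 43.9 in Th17, 58.5 in Treg and 101.2 in Th0, with the other probe set below 2-fold. P2rx4, another such channel, was 2.05-fold lower in Treg (56.3) than in Th0 (115.2), with both other probe sets under 2-fold. Panx1, a channel that releases ATP, was 2.04-fold lower in exFoxp3Th17 (175.7) than in Treg (359.2). Among 8 expressed dipeptidyl peptidase genes and partner molecules, Dpp8, a cytosolic peptidase related to Dpp4, was 2.26-fold higher in exFoxp3Th17 than in Th17 (224.3 against 99.1), with its 2 other probe sets under 2-fold at log2 ratios of 0.91 and 0.06. The chemokine receptor gene Cxcr4 was 4.26-fold higher in Th17 than in Th0 (545.4 against 128.0).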
